A study of Homo sapiens with 6 samples.

Results

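The zinc finger genes of the long arm of chromosome 19 between 19q12 and 19q13.3 were followed in RWPE-1 cells and in CAsE-PE cells. Members were all measured genes whose symbol begins with ZNF, ZFP, ZSCAN or ZKSCAN followed by a number and whose start, in RefSeq on GRCh38.p14, lies on 19q below 51 Mb. This gave 66 members out of 18417 genes, each read by 1 array feature. Every match had a ZNF or ZFP symbol. RefSeq places 71 genes with such symbols there. Of the other 5, ZNF222, ZNF223 and ZNF229 share their feature with a second symbol, and ZNF260 and the pseudogene ZNF807P had no named feature, so these 5 were not analysed here. RWPE-1 is a non-tumorigenic epithelial line from human prostate, immortalised with a papillomavirus. Its 3 arrays came from untreated cells at passages 18, 38 and 42. CAsE-PE is the malignant descendant of RWPE-1 grown continuously in 5 µM sodium arsenite, and its 3 arrays came from 30, 33.5 and 35 weeks of exposure. Both were kept in the same serum-free keratinocyte medium with pituitary extract and epidermal growth factor. The transformed cells are the descendant of a single line, and the labels name neither their passage nor untreated cells kept for the same time. Nothing in the labels says that the arrays of a group came from separate cultures, so the p-values rest on array-to-array spread alone. That spread includes differences in passage or in weeks of exposure, and it need not be the spread of independent cultures.

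Most of these genes encode proteins with tandem C2H2 zinc fingers, each finger reading a few bases of DNA, and many carry a KRAB domain at the other end. The KRAB domain recruits TRIM28 (KAP1), which in turn brings the H3K9 methyltransferase SETDB1, HP1 proteins and histone deacetylases, so that the bound locus is packed into silent chromatin. The genes arose by repeated tandem duplication and stand side by side in clusters on chromosome 19, and retrotransposon sequences are among their best known targets. ZFP36 fits the symbol rule but encodes tristetraprolin, a CCCH protein that binds and destabilises messenger RNA, and ZNF781 is annotated as a transcribed pseudogene.

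The arrays had median intensities of 91.7 to 97.2, and over all genes they correlated at 0.985 to 0.995 within a group and 0.956 to 0.969 between groups. The epithelial markers measured (KRT5, KRT14, ITGA6, KRT8, KRT18, CDH1 and EPCAM) lay between percentiles 92.2 and 99.8 of all genes in mean level. The luminal marker KLK3 lay at percentile 29.2. Of the 8 leukocyte, endothelial and fibroblast markers, CD68, which epithelial cells can also express in lysosomes, stood at percentile 93.5 and COL1A1 at 63.1, and the other 6 lay between 1.5 and 32.0. Some markers moved with the group: CDH1 rose (0.39, adjusted p = 0.0186), and KRT14 (−1.60, adjusted p = 0.00748), CD68 (−0.89, adjusted p = 0.00516) and PDGFRB (−0.32, adjusted p = 0.0479) fell, and their part in the members' differences was not tested. No detection call accompanied the values, so low intensities cannot be told from background.

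In the comparison of CAsE-PE with RWPE-1, 8 of the 66 genes passed the threshold, which is an adjusted p under 0.05 in limma over all genes. ZNF404, ZNF781 and ZNF585A fell, and ZNF345, ZNF285, ZNF566, ZNF546 and ZNF112 rose. The share called was 12.1%, and among all genes 17.7% were called. Falls made up 4.55% of the members against 8.71% of all genes, and rises 7.58% against 9.04%. By at least 2-fold, 1 member fell, ZNF404 (2.06% of all genes did so), and 0 rose (1.55% of all genes). The split between rises and falls depended on the scaling. After quantile normalisation 12 members were higher and 2 lower, while 9.07% of all genes were higher and 8.05% lower. With arrays centred on the other genes of the stretch 9 were higher and 2 lower, while 12.1% of all genes were higher and 5.08% lower. With 1 array left out, rises numbered 2 without passage 18, 1 without passage 38, 2 without passage 42 and 2 without the 35-week array. Of all genes, 6.49%, 5.15%, 7.99% and 5.62% rose in these fits, against 9.04%. Without the 35-week array 1 member fell, while 5.75% of all genes did.

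The remaining 58 members did not pass, and their measured differences were small. All log2 differences are CAsE-PE minus RWPE-1, from log2(intensity + 1), with 3 arrays in each group, and SE stands for the standard error that limma gave. In these 58 they ran from −0.28 in ZNF792 to 0.41 in ZNF283, and their 95% intervals, each taken for 1 gene alone, reached no lower than −0.61 and no higher than 0.71. Over the 66 members the median absolute difference was 0.16, against 0.19 over all genes, and 62 members differed by less than 0.5. For 63 members the 95% interval lay wholly within a 2-fold change in either direction, or 95.5%, against 90.9% of all genes. ZNF404, ZNF345 and ZNF285 were the exceptions. The median SE was 0.12 for the members and 0.12 for all genes.

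**Figure D1:**
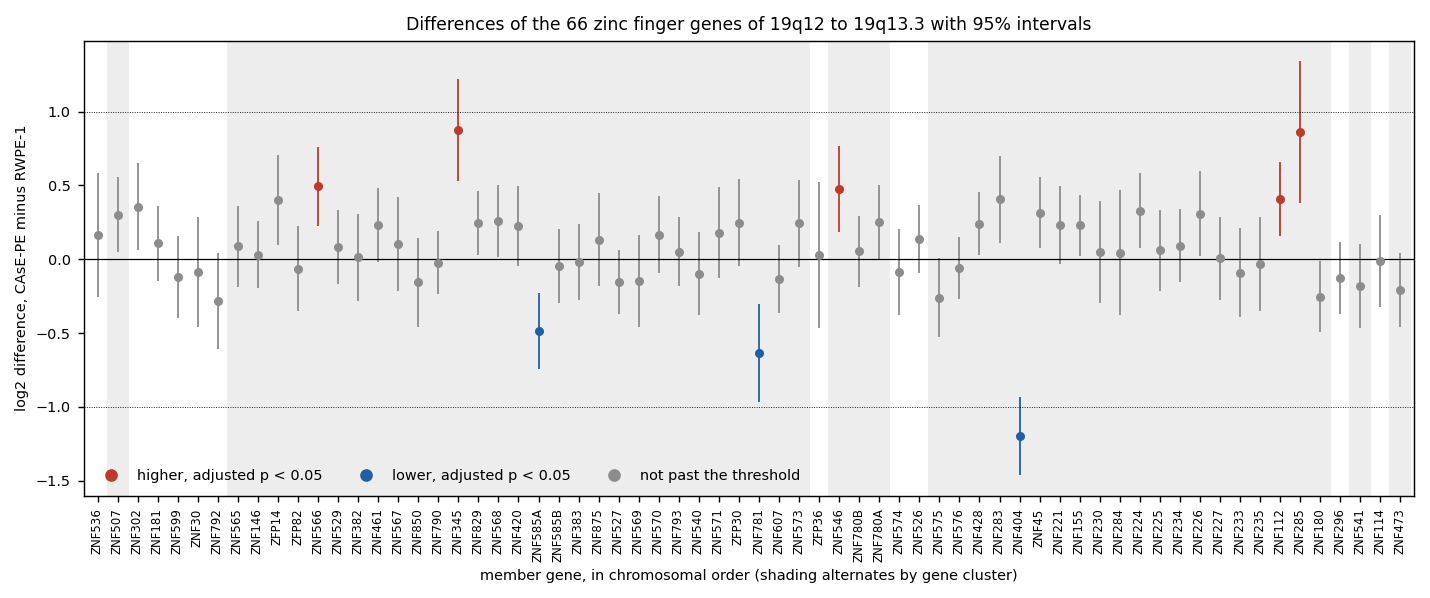
Log2 difference (CAsE-PE minus RWPE-1, n = 3 arrays each) of the 66 members in chromosomal order, with 95% intervals of the limma fit and dotted lines at a 2-fold change. The 3 falls and 5 rises are scattered among members near 0, and ZNF404 is the only point beyond −1.

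ZNF404 had the deepest fall. Its feature (8037430) read 5.58, 5.66 and 5.46 on the log2 scale at passages 18, 38 and 42, and 4.41, 4.51 and 4.18 at 30, 33.5 and 35 weeks. On the linear scale these were 46.8, 49.6 and 43.1 intensity units against 20.3, 21.9 and 17.2. The groups lay 0.95 log2 units apart at their nearest arrays, and the spread within each was far smaller. The mean went from 5.57 ± 0.10 (SD) to 4.37 ± 0.17, a difference of −1.20 (SE 0.12, adjusted p = 0.000221) or 2.29-fold. The call held under every alternative in which the gene was tested, with differences from −1.27 to −0.81. Its level was low, at percentile 12.2 of all genes, and it left the fit when the dimmest 33.3% of genes was removed.

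The genes next to ZNF404 did not fall with it. On one side ZNF283 read 6.48, 6.53 and 6.14 in RWPE-1 and 6.81, 6.66 and 6.90 in CAsE-PE, a difference of 0.41 (SE 0.13, adjusted p = 0.0626). On the other side ZNF45 read 6.14, 6.13 and 5.89 against 6.36, 6.41 and 6.34, a difference of 0.32 (SE 0.11, adjusted p = 0.0728). In both neighbours every CAsE-PE array lay above every RWPE-1 array, though neither passed the threshold. The same held in 16.1% of all genes and in 9 of the 20 members from ZNF575 to ZNF180. Both were chosen for naming after their values were seen. After quantile normalisation both passed, in the upward direction.

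The promoters of ZNF404 and of both neighbours are shown because ZNF404 fell while these neighbours, which did not pass, had positive differences. The 250 bases before the annotated start are given 5′ to 3′ on the gene's strand, from RefSeq on GRCh38.p14, with each CpG dinucleotide, the site of DNA methylation, in capitals. The windows are chr19:43883965-43884214 (minus strand) for ZNF404, chr19:43827071-43827320 (plus strand) for ZNF283 and chr19:43935283-43935532 (minus strand) for ZNF45.
ZNF404: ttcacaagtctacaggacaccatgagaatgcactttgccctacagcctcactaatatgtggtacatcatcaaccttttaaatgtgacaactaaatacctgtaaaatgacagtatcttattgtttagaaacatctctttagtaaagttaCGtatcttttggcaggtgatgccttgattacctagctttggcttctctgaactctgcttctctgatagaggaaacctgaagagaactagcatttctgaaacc
ZNF283: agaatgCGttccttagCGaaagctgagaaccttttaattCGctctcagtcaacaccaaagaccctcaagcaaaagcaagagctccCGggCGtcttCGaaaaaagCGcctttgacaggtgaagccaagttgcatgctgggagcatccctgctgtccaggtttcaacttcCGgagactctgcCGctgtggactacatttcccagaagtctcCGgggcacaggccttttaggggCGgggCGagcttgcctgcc
ZNF45: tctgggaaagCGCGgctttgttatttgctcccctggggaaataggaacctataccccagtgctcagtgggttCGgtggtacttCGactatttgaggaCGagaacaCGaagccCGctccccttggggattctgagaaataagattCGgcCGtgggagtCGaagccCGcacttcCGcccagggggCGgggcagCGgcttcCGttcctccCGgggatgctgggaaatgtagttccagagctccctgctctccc
The ZNF404 window held 1 CpG and 38.4% G and C, the ZNF283 window 12 CpG and 54.8%, and the ZNF45 window 16 CpG and 59.2%. The ZNF404 count was the lowest of the 57 members with a promoter in the table, where the next lowest was 5 in ZNF574, and 7.68% of the 14236 measured genes with a promoter had as few. The array carries no information on methylation, and the window follows the annotated start, which need not be the start used in these cells.

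ZNF781 and ZNF585A were the other falls. ZNF781 (feature 8036430) read 4.24, 4.62 and 4.57 in RWPE-1 and 3.91, 4.02 and 3.58 in CAsE-PE. The difference was −0.64 (SE 0.15, adjusted p = 0.0167), at the lowest mean level of all members, percentile 3.17 of all genes. It no longer passed once the array of passage 38 (adjusted p = 0.0760), of passage 42 or of 35 weeks was left out. ZNF585A (feature 8036373) read 6.75, 6.61 and 6.73 against 6.37, 6.03 and 6.23, so the groups did not overlap. It differed by −0.48 (SE 0.11, adjusted p = 0.0186), and its call was lost with arrays centred on the other genes of the stretch (adjusted p = 0.0669), after quantile normalisation (0.0568) and without the passage 18, 33.5-week or 35-week array.

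ZNF585A has a near copy beside it, ZNF585B, which did not pass. ZNF585B (feature 8036389) read 8.04, 7.95 and 8.19 in RWPE-1 and 8.16, 7.94 and 7.96 in CAsE-PE, with overlapping groups. It differed by −0.04 (SE 0.11, 95% interval −0.30 to 0.21). Signals of such copies on an array can mix, so the values of single members of this family are uncertain, and the difference between both genes was not tested. Their promoters, shown to let the copies be compared, lie at chr19:37172696-37172945 and chr19:37210537-37210786, both on the minus strand.
ZNF585A: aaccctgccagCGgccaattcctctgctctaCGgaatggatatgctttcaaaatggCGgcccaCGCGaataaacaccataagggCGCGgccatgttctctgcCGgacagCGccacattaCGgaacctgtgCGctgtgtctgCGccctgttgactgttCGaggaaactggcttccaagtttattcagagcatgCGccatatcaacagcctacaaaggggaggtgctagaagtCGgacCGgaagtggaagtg
ZNF585B: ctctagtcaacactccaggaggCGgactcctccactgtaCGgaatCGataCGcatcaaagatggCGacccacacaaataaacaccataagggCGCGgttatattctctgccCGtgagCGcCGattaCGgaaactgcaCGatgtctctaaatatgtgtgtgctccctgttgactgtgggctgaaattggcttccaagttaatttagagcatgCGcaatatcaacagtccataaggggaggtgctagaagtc
In a global alignment 193 of 273 columns were identical, or 70.7%. The ZNF585A window held 16 CpG and the ZNF585B window 13.

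Among the rises, ZNF345 and ZNF285 were the largest. ZNF345 (feature 8028206) read 5.13, 5.11 and 5.25 in RWPE-1 and 5.80, 5.91 and 6.39 in CAsE-PE. The RWPE-1 arrays lay close together and the 35-week array was the highest. The mean went from 5.16 ± 0.07 (SD) to 6.03 ± 0.31, a difference of 0.87 (SE 0.15, adjusted p = 0.00452) or 1.83-fold, and the call held with any 1 array left out. ZNF285 (feature 8037459) read 5.36, 5.22 and 5.47 against 6.76, 5.81 and 6.07, with the 30-week array highest. It differed by 0.86 (SE 0.21, adjusted p = 0.0224) or 1.82-fold, and it no longer passed once the array of passage 38 (adjusted p = 0.0863) or of passage 18 was left out.

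The promoters of both are shown beside that of ZNF404 as those of the members with the largest changes. They lie at chr19:36850626-36850875 (plus strand) for ZNF345 and chr19:44401609-44401858 (minus strand) for ZNF285.
ZNF345: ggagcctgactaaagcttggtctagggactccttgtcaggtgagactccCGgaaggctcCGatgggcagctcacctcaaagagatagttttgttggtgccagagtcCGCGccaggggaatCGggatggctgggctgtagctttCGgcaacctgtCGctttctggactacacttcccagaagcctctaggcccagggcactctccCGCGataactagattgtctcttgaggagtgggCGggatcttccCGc
ZNF285: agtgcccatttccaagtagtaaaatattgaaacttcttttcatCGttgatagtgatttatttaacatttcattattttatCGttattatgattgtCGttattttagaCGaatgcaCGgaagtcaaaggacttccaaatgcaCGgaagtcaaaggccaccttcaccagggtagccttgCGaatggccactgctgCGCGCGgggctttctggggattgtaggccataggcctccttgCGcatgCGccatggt
These windows held 11 and 12 CpG. The 5 members that rose had a median of 12 CpG, the 50 not called with a promoter 17.5, all 57 members 17 and all measured genes 18. The 5 ran from 10 in ZNF112 to 21 in both ZNF566 and ZNF546, and the difference in medians was not tested.

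The other 3 rises were modest. ZNF566 (feature 8036318) read 6.92, 6.77 and 6.75 in RWPE-1 and 7.16, 7.25 and 7.51 in CAsE-PE, a difference of 0.49 (SE 0.12, adjusted p = 0.0200). ZNF546 (feature 8028770) read 4.43, 4.64 and 4.66 against 4.86, 5.02 and 5.27, a difference of 0.47 (SE 0.13, adjusted p = 0.0341). ZNF112 (feature 8037453) read 6.09, 6.05 and 6.11 against 6.62, 6.30 and 6.55, a difference of 0.41 (SE 0.11, adjusted p = 0.0343). In each the groups did not overlap. ZNF566 no longer passed once the array of passage 38 (adjusted p = 0.0819), of passage 42 or of 35 weeks was left out. That of ZNF546 was lost in each fit with 1 array left out other than the 30-week array (highest adjusted p = 0.122, without 35 weeks) and with a pseudocount of 16. That of ZNF112 was lost in each such fit other than that without the 33.5-week array (highest adjusted p = 0.119, without passage 38). Of the 8 calls, ZNF404, ZNF781, ZNF345, ZNF546 and ZNF285 belonged to the 20 members in the dimmest 33.3% of all genes. The share of all such dim genes that were called was not computed. Outside the dimmest 33.3%, 6.52% of the members were called, against 21.99% of all genes there.

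**Figure D2:**
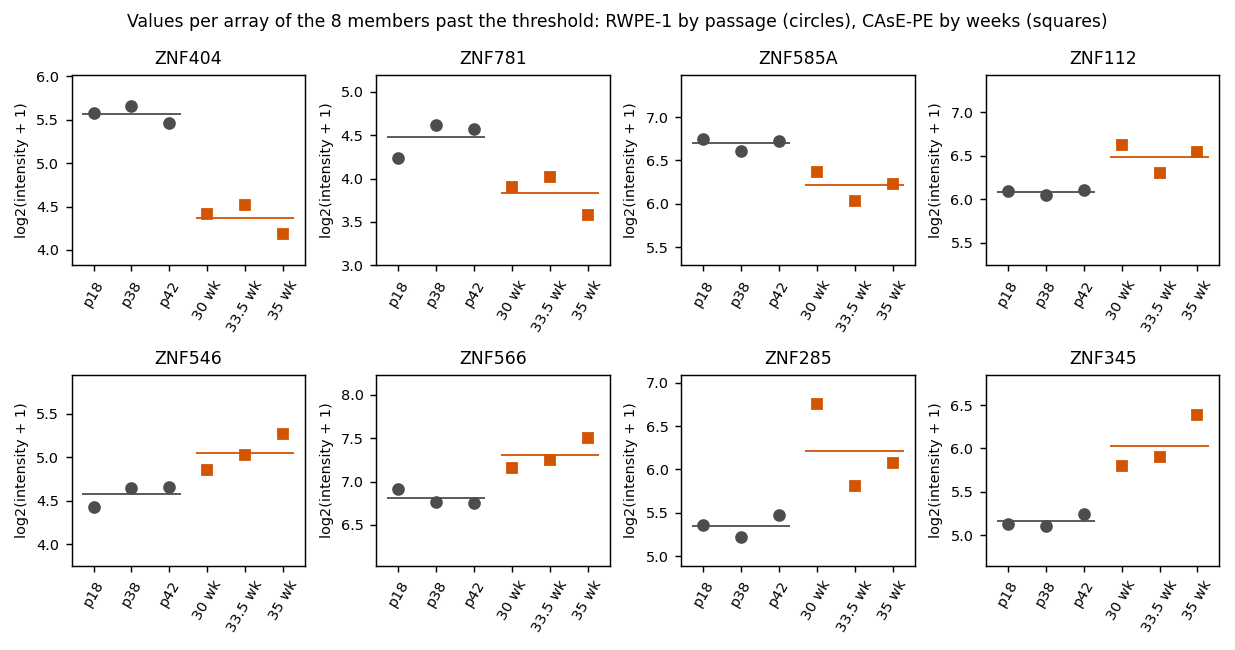
Log2(intensity + 1) on each array for the 8 members past the threshold, with RWPE-1 passages as circles, CAsE-PE weeks as squares and group means as lines, every panel spanning the same range of log2 units. In all 8, which were picked by the threshold, the groups do not overlap, and the gap is widest in ZNF404. Of all genes, 38.9% have groups that do not overlap.

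ZNF382 and ZFP82, KRAB repressors described as tumour suppressors that are silenced by promoter methylation in several carcinomas, did not pass the threshold. ZNF382 (feature 8028194) read 6.94, 7.01 and 7.03 in RWPE-1 and 6.98, 6.78 and 7.26 in CAsE-PE. It differed by 0.01 (SE 0.13, 95% interval −0.28 to 0.31), with overlapping groups. ZFP82 (feature 8036309) read 7.08, 6.96 and 6.68 against 6.74, 6.84 and 6.95, a difference of −0.06 (SE 0.13, 95% interval −0.35 to 0.22). The arrays of both genes overlapped, and the intervals leave out a 2-fold change in either direction.

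ZNF420, known as the p53 inhibitor Apak, differed by 0.22 (SE 0.12, adjusted p = 0.234). ZNF146, a protein made almost wholly of fingers without a KRAB domain, was the brightest member, with a mean of 9.77 ± 0.11 (SD) in RWPE-1 and 9.80 ± 0.04 in CAsE-PE, and differed by 0.03 (SE 0.10). ZNF224, a KRAB repressor that partners the Wilms tumour protein WT1, read 6.41, 6.28 and 6.14 in RWPE-1 and 6.58, 6.51 and 6.73 in CAsE-PE. These groups did not overlap, and the difference was 0.33 (SE 0.11, adjusted p = 0.0765, and 0.0415 after quantile normalisation).

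The other members fixed by name did not pass the threshold either, though ZNF568 did so with other scalings. ZNF568, whose mouse counterpart represses a placental Igf2 transcript, differed by 0.26 (SE 0.11, adjusted p = 0.131), and it passed after quantile normalisation (adjusted p = 0.0235) and with arrays centred on the other genes of the stretch (0.0352). ZFP30, a KRAB protein, differed by 0.25 (SE 0.13, adjusted p = 0.223) and ZNF180 by −0.25 (SE 0.11, adjusted p = 0.137). ZNF296, which acts with reprogramming factors, differed by −0.13 (SE 0.11), and ZNF473, which takes part in histone messenger RNA processing, by −0.21 (SE 0.11). ZNF536, a repressor of neuronal differentiation, was dim and varied within RWPE-1, at 4.55, 4.78 and 5.33, against 5.17, 5.10 and 4.89 in CAsE-PE. It differed by 0.16 (SE 0.19).

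ZFP36, the RNA-binding outlier of the rule, read 8.96, 8.72 and 9.35 in RWPE-1 and 9.52, 8.79 and 8.80 in CAsE-PE. It varied more within each group than between them and differed by 0.03 (SE 0.22).

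Small upward differences were more common than downward ones. Of the 66 members, 41 had a positive difference, or 62.1%, against 40.5% of all genes, and their median was 0.06 against −0.06 over all genes. Among the 280 zinc finger genes outside chromosome 19 the same values were 57.9% and 0.07. In 26 members the groups did not overlap, or 39.4%, against a background of 38.9% of all genes. In 21 of these CAsE-PE was higher (16.1% of all genes) and in 5 lower (22.8% of all genes). Beside the 5 rises, the 21 included ZNF283, ZFP14, ZNF302, ZNF45, ZNF226 and ZNF507, with differences of 0.30 to 0.41, chosen for naming after their values were seen, and ZNF224. Members were dimmer than genes at large, with a median level of 6.46 against 7.13. Among the 46 members outside the dimmest 33.3%, 29 had a positive difference, or 63.0%, against 48.6% of such genes. The median of the members stayed positive after quantile normalisation, at 0.11 (all genes −0.01). It was 0.08 with arrays centred on their medians (−0.04) and 0.17 with arrays centred on the other genes of the stretch (0.05). Either centring raises the difference of every gene by the same amount, so it could not have turned a positive median negative.

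The shift was uneven between arrays. Relative to each gene's RWPE-1 mean, the members' median deviation was −0.01, 0.01 and −0.01 at passages 18, 38 and 42, and 0.13, 0.00 and 0.07 at 30, 33.5 and 35 weeks. Over all genes the median deviation at 30, 33.5 and 35 weeks was −0.07, −0.03 and −0.08, and over the other genes of the stretch −0.12, −0.08 and −0.18. The numbers of members above their RWPE-1 mean were 44, 33 and 42 of 66 at 30, 33.5 and 35 weeks. The 33.5-week array thus stood at the RWPE-1 level in its median, and the 30-week array highest. The median standard deviation of a member was 0.12 within RWPE-1 and 0.15 within CAsE-PE, against 0.13 and 0.13 over all genes.

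**Figure D3:**
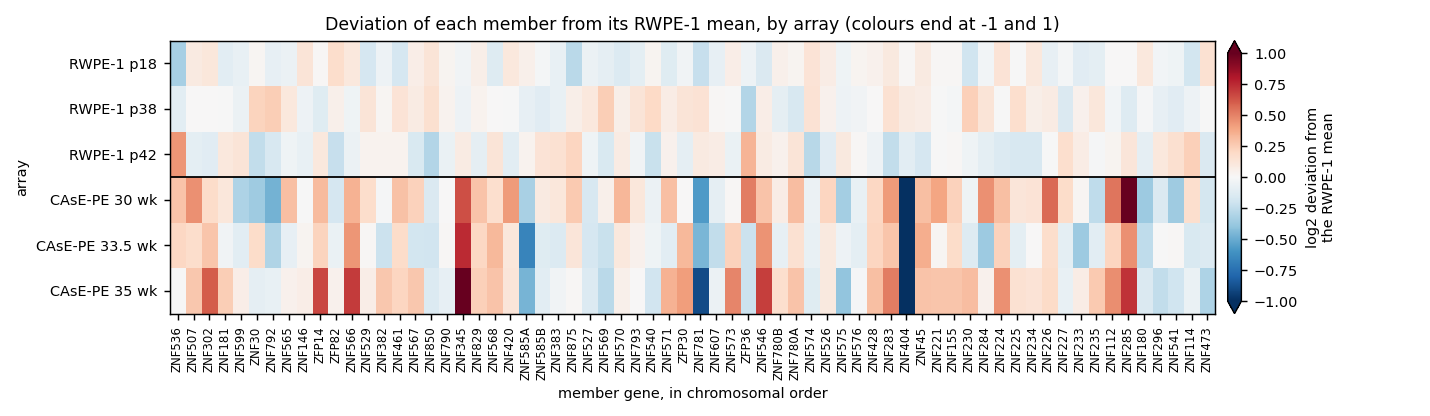
Deviation of each of the 66 members (columns, in chromosomal order) from its own RWPE-1 mean on each of the 6 arrays (rows), in log2 units, with colours that end at −1 and 1. Apart from single columns such as ZNF404, ZNF345 and ZNF285 most cells are pale, and the row at 33.5 weeks has fewer members above the RWPE-1 mean (33) than those at 30 (44) and 35 weeks (42).

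Neither passage nor time of exposure moved a member past the threshold. In a limma model holding the group, the passage of RWPE-1 and the exposure weeks of CAsE-PE, which has 2 residual degrees of freedom, 0 of 66 members were called for passage and 0 for weeks. The background was as low, at 0.0217% of all genes for passage and 0.25% for weeks. At an unadjusted p under 0.05 there were 2 members for passage (5.82% of all genes) and 6 for weeks (11.3% of all genes). The lowest adjusted p was 0.814 for passage, in ZNF536, and 0.253 for weeks, in ZNF285, whose level changed by −0.16 log2 units per week (from 6.76 at 30 weeks to 6.07 at 35).

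By position, the members formed 12 groups when neighbours starting no more than 0.5 Mb apart were joined, and 2 of them held most genes. The largest, from ZNF565 to ZNF573, held 29 members, of which 2 rose (ZNF566 and ZNF345), 2 fell (ZNF585A and ZNF781) and 18 had a positive difference, with a median of 0.08. The next, from ZNF575 to ZNF180, held 20 members, of which 2 rose (ZNF112 and ZNF285), 1 fell (ZNF404) and 14 had a positive difference, with a median of 0.08. The trio ZNF546, ZNF780B and ZNF780A held 1 rise, ZNF546, and the 5 members from ZNF302 to ZNF792 held 0 calls. The other 8 groups of 1 or 2 members held 0 calls. In the 2 largest groups 13.8% and 15.0% of the members were called, against 17.7% of all genes. Groups of 1 to 5 members are too small to set against that share. ZNF112 and ZNF285, which both rose, are adjacent members, whereas ZNF345 stood between ZNF790 (−0.02) and ZNF829 (0.25), neither of which passed.

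The other genes of the same stretch included more falls. Of 432 genes of 19q12 to 19q13.3 that are no members, 36 fell, or 8.33%, and 7 rose, or 1.62%, with a median of −0.13, and 108 had a positive difference. Inside the group from ZNF575 to ZNF180, 9 such genes were measured and 1 fell, PINLYP (−0.85, SE 0.13, adjusted p = 0.00222), named after its value was seen. Zinc finger genes elsewhere on the chromosome had larger shares of falls than all genes. In 19p12, 18 of 34 fell, or 52.9%, with a median of −0.63, and 11 of them by at least 2-fold (2.06% of all genes did so). In 19q13.4, 21 of 102 fell, or 20.6%, 12 of them by at least 2-fold, and 2 rose. In 19p13, 7 of 42 fell, or 16.7%, 3 of them by at least 2-fold. The 280 zinc finger genes of other chromosomes went both ways, with 41 rises, or 14.6%, 30 falls, or 10.7%, and a median of 0.07. Against these stand 3 falls among 66 members, or 4.55%, 1 of them by at least 2-fold. The differences between these sets were not tested.

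**Figure D4:**
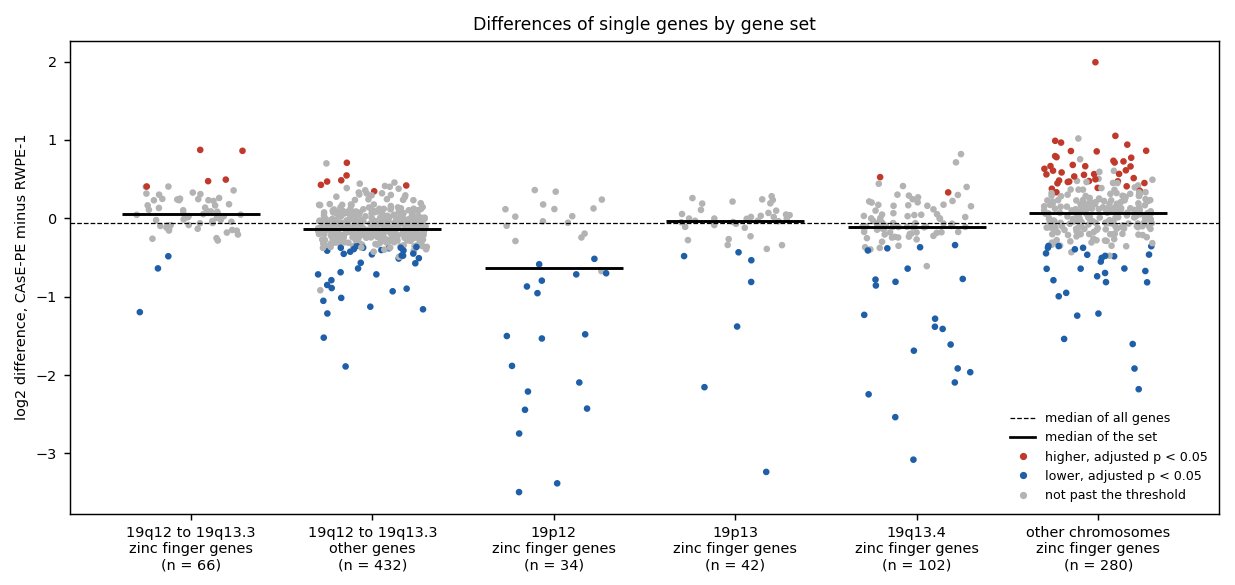
Log2 difference of every measured gene (points, CAsE-PE minus RWPE-1) in the 19q12 to 19q13.3 zinc finger set, in the other genes of that stretch and in the zinc finger genes of 4 other locations, with set medians as bars and the median of all genes as a dashed line. The 66 members lie between −1.20 and 0.87 with a median of 0.06, whereas the 34 genes of 19p12 reach −3.49 with a median of −0.63.

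Promoter sequences of the members were close to those of other genes in base composition. The 57 member promoters had a median of 17 CpG and 60.4% G and C in 250 bases, against 18 and 62.8% in all measured genes. Letters of 3 factor sites were counted on both strands. CCGGAAG, the core of ETS factor sites, which itself contains a CpG, stood in 12 of 57 member promoters, or 21.1%, against 12.1% of all measured genes, and in 17 of 27 promoters of the 19p12 set, or 63.0%. GCATGCG, within NRF1 sites, stood in 5 members (8.77% against 4.51%), and TCGCGA, the core of BANP sites, in 1 (1.75% against 3.85%). Of the 7 called members with a promoter, ZNF345 and ZNF585A held the ETS letters, and ZNF585A and ZNF285 the NRF1 letters. The 19p12 promoters had a median of 8 CpG.

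Among the partner genes, listed for the KRAB corepressor, H3K9 methylation and related chromatin functions, TRIM24 rose and SUV39H2 fell, and most others did not pass. Of 27 such genes listed, 25 were measured, of which 5 rose, 1 fell and 19 did not pass, with a median of −0.02. The shares were 20.0% higher and 4.0% lower, against 9.04% and 8.71% of all genes. All 25 lay outside the dimmest 33.3% of genes, where calls were more frequent. Of all genes there, 12.2% were called higher and 9.74% lower. TRIM28 itself read 10.50, 10.46 and 10.35 in RWPE-1 and 10.17, 10.40 and 10.33 in CAsE-PE, with overlapping groups. It differed by −0.14 (SE 0.10, adjusted p = 0.388, 95% interval −0.37 to 0.10).

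TRIM24, a chromatin reader and relative of TRIM28, read 7.64, 7.61 and 7.68 against 8.66, 8.54 and 8.59, a rise of 0.95 (SE 0.09, adjusted p = 0.000232). SUV39H2, an H3K9 methyltransferase, read 9.05, 8.92 and 8.74 against 8.03, 8.35 and 8.25, a difference of −0.69 (SE 0.13, adjusted p = 0.00535). Groups did not overlap in either gene, and both calls held with any 1 array left out. SETDB1, the methyltransferase recruited by TRIM28, rose by 0.42 (SE 0.11, adjusted p = 0.0309), and MORC2 (0.48), EHMT1 (0.38) and the HP1 gene CBX1 (0.35) rose as well. Each of these 4 calls was lost with at least 4 of the 6 arrays left out in turn. Partner rises numbered 2 without passage 18, 1 without passage 38 and 2 without passage 42. They numbered 3 without the 30-week array, 3 without the 33.5-week array and 1 without the 35-week array. In these fits 5.15% to 9.04% of all genes rose. Partner falls numbered 2 without passage 42 or the 33.5-week array and 3 after quantile normalisation. Of all genes, 8.25%, 6.81% and 8.05% fell there.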

How the data were processed

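Total RNA for 6 arrays was taken with Trizol, cleaned on Qiagen columns and biotin-labelled with an Ambion whole-transcript kit, per the labels' protocols. The authors deposited 1 linear intensity per feature and array for 33252 features. How they corrected, summarised and normalised these values is not given in the sources used here. GEO's platform annotation gave 1 symbol for 19460 features, several for 1754 and none for 12038, and 19429 of the first had an Entrez identifier in RefSeq (GRCh38.p14). The brightest feature stood for each gene. Groups (3 arrays each) entered a two-sided limma test (version 3.58.1 under R 4.3.3, functions lmFit and eBayes) with Benjamini-Hochberg adjustment over 18417 genes, on log2(value + 1), where the pseudocount of 1 understates changes of dim genes. The steps were tested on simulated data with normal noise, in which 100 genes changed by 1 and 100 by 2 log2 units. The fit recovered 83% and 96% of them, with 6 false calls. Smaller changes, the size of most member differences, were not simulated. The members and lists were chosen with earlier results of these data known. Named members were all called ones whose groups did not overlap and 13 fixed by name, of which 12 were measured; named partner genes were TRIM28, SETDB1 and those called. Any other member named was chosen after its values were seen. Finger and KRAB counts from protein sequences were planned and not made. Alternatives changed the scaling, pseudocount, dim-gene filter, variance model, covariates, feature rule and arrays used. The number of arrays limits the precision.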

Additional observations from a re-analysis of the deposited data

How the results depend on the processing

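The same members were called with arrays centred on their medians, under both other variance models, with passage and weeks as covariates and with the mean of features, which is identical here because each member has 1 feature. Members called higher numbered 12 after quantile normalisation, 9 with arrays centred on the other genes of the stretch and 2 with the dimmest 33.3% left out, against 5. Over all genes the shares called higher there were 9.07%, 12.1% and 12.8%, against 9.04%. Members called lower numbered 1 with the dimmest 33.3% left out, against 3. The share of all tested genes called lower there was 10.3%, against 8.71%. With 1 array left out, 1 to 4 were higher and 1 to 3 lower. The share of all genes called in either direction fell as well in these fits, to between 10.3% and 17.1%, against 17.7%. Quantile normalisation kept 7 of the 8 calls and added 7. Centring on the stretch, which raises the difference of every gene by the same amount, kept 7 and added 4. What else changed single calls was not tested. Partner genes called lower numbered 3 after quantile normalisation and with covariates, and 2 with a pseudocount of 16 and with the dimmest 33.3% left out, against 1. With 1 array left out, 1 to 3 partners were higher and 1 to 2 lower. For the 27 genes of the naming rule, 398 values under alternatives gave 44 lost and 3 gained calls, and 0 reversed calls. No paired analysis was possible because the labels give no replicate numbers shared by both groups. Low intensity limits 20 of the 66 members, which lie in the dimmest 33.3% of genes.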
